A study of Mus musculus with 14 samples.

Results

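Wnt ligands, Frizzled receptors and their secreted modulators were examined in the colon of mice with or without chemically induced colitis. The genes were those whose symbol, matched through the probe's accession, begins with Wnt, Fzd, Sfrp, Dkk or Rspo followed by a digit, a rule that reads names and no measured value. The rule found 41 genes with 53 probes among the 19096 named genes of the array: 19 Wnt, 10 Fzd, 4 Sfrp, 4 Dkk and 4 Rspo genes. Where a gene had more than 1 probe, as 11 of them did, the brightest probe on average was used.

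All mice were female C57BL/6 animals aged 4 to 6 months, and every mouse carried loxP-flanked alleles of Nr3c1, the gene of the glucocorticoid receptor (GR). Flox mice had these alleles alone and served as controls. GR iKO mice also carried Villin-cre, which deletes GR in intestinal epithelial cells and leaves it in the stroma, muscle, nerves and immune cells of the gut. For 7 days the animals received either plain drinking water or 2.5% dextran sodium sulfate (DSS) in it, an agent that injures the colonic lining, and total RNA of the whole colon was hybridised to 1-colour arrays, 1 mouse per array. The water arms held 4 mice of each genotype and the DSS arms 3. No source used here gives litters or cages, so p-values measure the spread between these animals.

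Wnts are lipid-modified proteins that bind a Frizzled receptor together with the co-receptor Lrp5 or Lrp6, after which β-catenin is spared from degradation and drives genes through TCF and LEF factors. R-spondins (Rspo) raise the number of Frizzled receptors on the cell by removing the ubiquitin ligases Rnf43 and Znrf3, secreted Frizzled-related proteins (Sfrp) bind Wnts outside the cell, and most Dickkopf proteins (Dkk) block Lrp5 and Lrp6. In the colon this pathway keeps the stem cells at the crypt base dividing, and much of the ligand supply comes from stromal cells around the crypt.

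Promoter sequences were looked up for the members that the results turn on. RefSeq promoter windows on build GRCm38.p6 covered 27 of the 41 genes, in 30 windows, and the 250 bases before each annotated start were searched on both strands for TATAAA (the core of a TATA box), CTTTGA (the core bound by TCF and LEF), TGANTCA (AP-1) and ACANNNTGT (the core of a glucocorticoid receptor palindrome). Of all 32851 windows of this length, 12.4%, 13.8%, 6.75% and 5.84% held these motifs, in that order, against 4, 4, 1 and 2 of the 30 windows of these genes. The 5 windows shown belong to genes that DSS moved in one direction in both genotypes with a log2 change of at least 1 in Flox, namely Dkk2, Sfrp5 and Wnt9a, which rose, and Fzd9 and Fzd10, which fell. Capitals mark a motif. It occurs only in the Dkk2 window, where TATAAA begins 32 bases before the start. Guanine and cytosine made up 55.6% of the bases for Dkk2, 59.6% for Sfrp5, 84.4% for Wnt9a and 76.4% for both Fzd9 and Fzd10. The windows lie, in the order shown, at chr3:132085042-132085291 (plus strand), chr19:42202253-42202502 (minus strand), chr11:59306680-59306929 (plus strand), chr5:135251048-135251297 (minus strand) and chr5:128600856-128601105 (plus strand).
Dkk2: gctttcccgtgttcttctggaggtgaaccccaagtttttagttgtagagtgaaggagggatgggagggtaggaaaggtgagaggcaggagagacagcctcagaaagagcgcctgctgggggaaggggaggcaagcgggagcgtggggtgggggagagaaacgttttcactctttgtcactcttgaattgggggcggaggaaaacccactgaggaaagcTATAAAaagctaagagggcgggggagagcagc
Sfrp5: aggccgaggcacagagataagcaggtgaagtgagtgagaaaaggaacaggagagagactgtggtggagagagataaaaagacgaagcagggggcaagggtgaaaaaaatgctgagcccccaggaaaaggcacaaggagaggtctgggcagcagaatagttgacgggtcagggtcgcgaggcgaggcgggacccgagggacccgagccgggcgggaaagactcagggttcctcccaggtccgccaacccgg
Wnt9a: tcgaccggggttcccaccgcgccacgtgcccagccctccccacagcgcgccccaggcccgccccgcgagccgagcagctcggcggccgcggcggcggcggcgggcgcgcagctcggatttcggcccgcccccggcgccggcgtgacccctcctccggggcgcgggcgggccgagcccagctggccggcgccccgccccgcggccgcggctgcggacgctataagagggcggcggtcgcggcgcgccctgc
Fzd9: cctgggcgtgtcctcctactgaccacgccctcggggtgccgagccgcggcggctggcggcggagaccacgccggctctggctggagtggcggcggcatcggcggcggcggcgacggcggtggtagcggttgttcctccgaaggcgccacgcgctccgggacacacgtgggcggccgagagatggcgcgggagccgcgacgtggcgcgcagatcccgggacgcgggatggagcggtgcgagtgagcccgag
Fzd10: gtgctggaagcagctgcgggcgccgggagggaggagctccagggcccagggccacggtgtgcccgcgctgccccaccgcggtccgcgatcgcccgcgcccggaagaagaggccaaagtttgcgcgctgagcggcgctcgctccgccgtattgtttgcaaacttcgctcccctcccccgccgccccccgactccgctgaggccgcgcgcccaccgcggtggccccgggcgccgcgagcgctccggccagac

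Levels are given as the log2 signal of a probe minus the 75th percentile of its array, so that 0 is the level of a bright probe, and levels of different genes are not compared because probes differ in brightness. That percentile lay between 261.9 and 1003 intensity units, and 62.59% to 71.26% of probes were well above background, with Flox DSS replicate 4 lowest in both. Nr3c1 was at 57.3% of its Flox level in GR iKO colon on water (two-sided exact permutation p = 0.0286) and at 56.1% on DSS (exact p = 0.1, the smallest that 3 against 3 arrays allow). Each slide held several groups, but each group kept its own position on every slide, so position and group cannot be told apart. In whole-colon RNA, fewer cells of a type and less RNA per cell cannot be told apart. DSS arrays varied more than water arrays: the median SD over the tested members was 0.24 (Flox) and 0.3 (GR iKO) for the water arms and 0.53 and 0.52 for the DSS arms.

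Most members were detectable in the colon. The probe was well above background on all 14 arrays for 23 genes, among them all 4 Sfrp genes, every Fzd gene except Fzd10, and Dkk2, Dkk3 and Rspo1, and 33 genes passed the filter for testing, which asked for 3 such arrays. Those 33 were 13 Wnt, 10 Fzd, 4 Sfrp, 3 Dkk and 3 Rspo genes. Among the Wnt genes, only Wnt2, Wnt4, Wnt5b, Wnt6, Wnt7b, Wnt9a and Wnt11 were above background on every array. Dkk1, Wnt7a, Wnt10b and Wnt16 were not well above background on any array with any probe. Rspo4, Wnt3, Wnt3a and Wnt8a were not tested either, each being above background on 1 or 2 arrays of scattered groups. Wnt3a, a strong activator of β-catenin, lay at −3.02 on GR iKO DSS replicate 1 and at −5.36 on Flox replicate 2 on water, the 2 arrays where it was above background, and Wnt8a lay at −3.48 on GR iKO replicate 3 on water alone. Wnt3, the ligand of Paneth cells in the small intestine, was above background on 1 water array and 1 DSS array of GR iKO. Rspo4 was so on 1 water array of each genotype with the probe used. The other tested genes were above background on some arrays only, namely Rspo2 and Fzd10 on 12, Rspo3 and Wnt1 on 10, Wnt2b and Wnt10a on 9, Wnt5a on 6, Dkk4 on 4, and Wnt8b and Wnt9b on 3, so their fitted changes rest in part on signals near background.

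**Figure D1:**
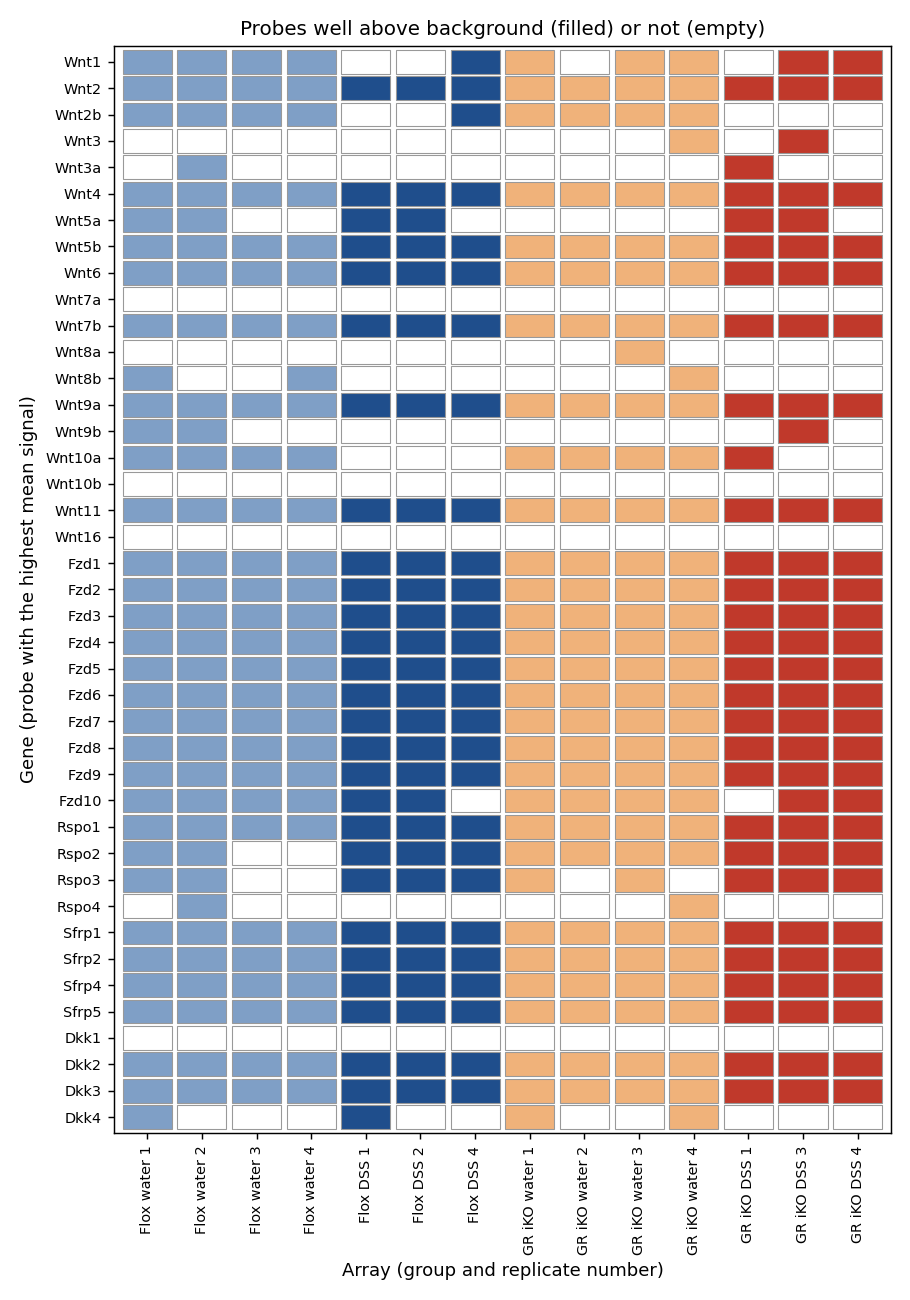
Each row is a gene and each column an array, grouped as Flox water, Flox DSS, GR iKO water and GR iKO DSS. A filled cell means that the probe was well above background, as it was on all 14 arrays for 23 of the 41 genes. Wnt10a is filled on all 4 Flox water arrays and on none of the 3 Flox DSS arrays.

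Relative to the other probes of the array, DSS raised R-spondins, most Sfrp genes and Dkk2 and Dkk3 in the colon, although with arrays scaled to spike-in controls the Flox changes of Rspo1, Rspo2, Sfrp4, Sfrp5 and Dkk3 lay below 0. In Flox mice, 13 of the 33 tested members were higher on DSS and 4 were lower (limma, adjusted p under 0.05), where 24.4% of all tested probes were called higher and 28.2% lower, or 52.6% in all. In GR iKO mice 12 were higher and 6 lower, where 22% and 22.5% of all probes were called, or 44.5% in all. The median log2 change over the tested members was 0.59 in Flox and 0.47 in GR iKO, against −0.09 and −0.02 over all tested probes. By family, 3 of 3 tested Rspo genes, 3 of 4 Sfrp genes and 2 of 3 Dkk genes were higher in Flox with none lower, whereas the Fzd genes split into 3 higher and 3 lower and the Wnt genes into 2 higher and 1 lower. In GR iKO the same split was 2 of 3 Rspo, 3 of 4 Sfrp and 2 of 3 Dkk genes higher with none lower, 2 higher and 3 lower among Fzd genes, and 3 higher and 3 lower among Wnt genes. The DSS and water groups did not overlap for 14 members in Flox, 12 higher and 2 lower, where 57.4% of all probes did not overlap (25.8% higher, 31.5% lower). In GR iKO they did not overlap for 17 members, 12 higher and 5 lower, against 46.3% of all probes (22.6% higher, 23.7% lower). A total of 10 genes were higher in both genotypes, 4 were lower in both, 3 passed the test in Flox alone and 4 in GR iKO alone, and 12 passed in neither. The shares of all probes in these classes were 16.9%, 17.7%, 17.9%, 9.75% and 37.6%, in that order.

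These directions hold relative to the bulk of each array's probes. When arrays were scaled to spike-in control spots instead, the median tested probe itself stood at −2.41 in Flox and −0.95 in GR iKO, the rises of Rspo1, Rspo2, Sfrp4, Sfrp5, Dkk3, Wnt9a, Wnt11, Fzd2, Fzd3 and Fzd4 in Flox and of Wnt9a and Wnt11 in GR iKO turned below 0, and the split of calls became 1 higher and 23 lower in Flox and 3 higher and 12 lower in GR iKO, where 89.1% and 55.6% of all probes were called (88.1% and 51.7% lower). Under the same scaling Rspo3 (0.85, adjusted p = 0.0553) and Sfrp1 (0.17) lost their call in Flox, and Rspo2 (0.59), Sfrp4 (0.16), Sfrp5 (0.54), Dkk3 (0.32), Wnt5a (0.5), Fzd1 (0.12) and Fzd3 (0) lost theirs in GR iKO. Dkk3, Fzd2, Fzd4, Sfrp5 and Wnt11 were called lower in Flox under that scaling, with adjusted p of 8.98e-05 to 0.0278. The other changes that turned below 0 were not called. Dkk2 was higher and called under that scaling in both genotypes. With normexp background correction, which moved the median probe to 0.22 in Flox and 0.13 in GR iKO, the Flox split was 23 higher and 0 lower, where 36.3% of all probes were called higher and 19.5% lower. Cell type markers moved with DSS too. All 8 fibroblast markers were called higher in both genotypes, with a mean over the list on single DSS arrays of 1.22 to 1.69 above water in Flox and 0.97 to 1.28 in GR iKO. All 6 enteric glia and neuron markers were called higher in both (2.13 to 2.65 and 1.29 to 1.74), and so were all 5 neutrophil markers (4.27 to 5.23 and 5.6 to 6.95). The 6 smooth muscle markers were called higher in Flox (0.93 to 1.73) and none of them in GR iKO (−0.73 to 0.53). The list of 11 colonic epithelial markers lay at −0.88 to 0.06 in Flox and −0.62 to 0.15 in GR iKO. Of 9 tested markers of subepithelial and crypt-base fibroblasts, 3 were higher and 2 lower in Flox, and 2 higher and 0 lower in GR iKO. With spike-in scaling, 4 of 8 fibroblast and 6 of 6 smooth muscle markers were called lower in Flox. Of the enteric glia and neuron markers 0 of 6 were then called in Flox (median 0.06), and 3 of 5 neutrophil markers were higher and 1 lower. In GR iKO that scaling called 0 of 8 fibroblast, 1 of 6 glia and neuron and 4 of 5 neutrophil markers higher. The part of these cell types in the changes of the Wnt pathway genes was not tested.

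**Figure D2:**
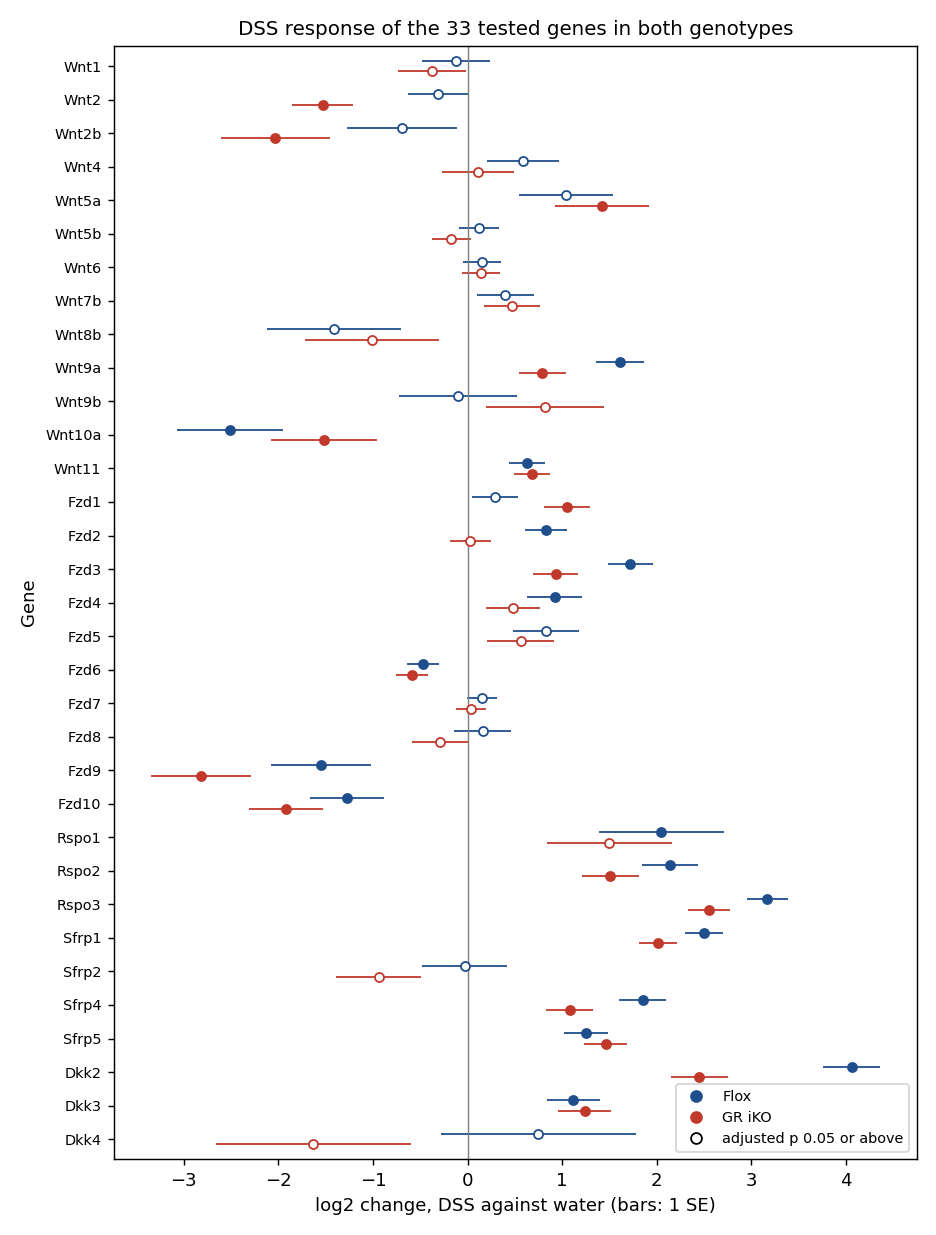
Points give the log2 change on DSS against water of the 33 tested genes, in blue for Flox and red for GR iKO, with bars of 1 SE, and filled points have an adjusted p under 0.05. Rspo, Sfrp and Dkk genes lie mostly to the right of 0, with Dkk2 at 4.06 in Flox farthest out and Wnt10a, Fzd9 and Fzd10 to the left, although spike-in scaling puts 10 of the Flox rises and 2 of the GR iKO rises below 0.

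The R-spondins come first, as the secreted amplifiers of Wnt signals. Rspo3, which in the gut is made by stromal cells near the crypt base, stood at −6.11, −5.85, −6.13 and −5.63 on the Flox water arrays and at −2.47, −2.61 and −3.22 on the Flox DSS arrays. The GR iKO levels were −5.63, −6.04, −5.63 and −6.22 on water and −3.48, −2.99 and −3.51 on DSS. Every DSS array was higher than every water array in both genotypes, and 4 of the 8 water arrays were not well above background. The rise was 3.17 ± 0.22 (log2, SE) in Flox mice (adjusted p = 1.08e-06) and 2.55 ± 0.22 in GR iKO (adjusted p = 6.24e-06), and under spike-in scaling the Flox value was 0.85 (adjusted p = 0.0553). Rspo2, a close relative with the same receptors, moved from −4.87, −5.03, −5.01 and −5.74 on water to −2.48, −2.67 and −3.91 on DSS in Flox. Its GR iKO values were −4.95, −4.91, −5.20 and −5.29 on water and −3.62, −3.60 and −3.50 on DSS, again without overlap. The log2 rise of Rspo2 was 2.14 ± 0.30 in Flox mice (adjusted p = 0.000104) and 1.51 ± 0.30 in GR iKO (adjusted p = 0.00161).

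Rspo1 was more variable than the other R-spondins. Flox mice had 1.07, 0.63, 1.34 and −1.43 on water and 2.98, 3.45 and 0.93 on DSS, so that Flox replicate 4 was lowest in each group and the groups overlapped. GR iKO mice had 0.86, 0.14, 0.40 and 0.63 on water and 2.40, 2.07 and 1.53 on DSS, with no overlap. The change was 2.05 ± 0.66 in Flox mice (adjusted p = 0.02) and 1.5 ± 0.66 in GR iKO (adjusted p = 0.084). The Flox call was lost without Flox DSS replicate 1 (adjusted p = 0.0775) or replicate 2 (adjusted p = 0.0961). It was lost or reversed in 5 of 25 alternatives, among them arrays weighted by treatment (adjusted p = 0.0622). Within slides the Flox difference was 1.91, 2.82 and 2.35.

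Sfrp1, Sfrp4 and Sfrp5, decoy proteins that carry a Frizzled-like binding domain, rose in both genotypes relative to the other probes, although under spike-in scaling Sfrp4 and Sfrp5 lay below 0 in Flox and, of these calls, only that of Sfrp1 in GR iKO remained, and Sfrp2 did not pass the test in either. Sfrp1 stood at −0.42, −0.18, −0.12 and −0.24 on water and 2.36, 2.32 and 2.10 on DSS in Flox. GR iKO mice gave −0.36, −0.44, −0.43 and −0.66 on water and 0.94, 2.01 and 1.67 on DSS. The groups were far apart, with a rise of 2.50 ± 0.20 in Flox mice (adjusted p = 2.39e-06) and 2.01 ± 0.20 in GR iKO (adjusted p = 1.66e-05). A separate Sfrp1 probe rose by 2.63 in Flox and by 1.91 in GR iKO.

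Sfrp4 moved from −1.11, −1.34, −1.21 and −1.47 on water to 0.69, 0.70 and 0.33 on DSS in Flox. The GR iKO levels went from −0.82, −1.58, −1.17 and −1.30 to 0.30, 0.10 and −0.82. Replicate 4 of GR iKO on DSS met the highest water array, whereas the Flox groups were clearly apart. The rise was 1.85 ± 0.25 in Flox mice (adjusted p = 7.26e-05) and 1.08 ± 0.25 in GR iKO (adjusted p = 0.00387). Sfrp5, dim but above background on every array, went from −4.79, −5.06, −5.27 and −5.19 on water to −3.42, −3.63 and −4.43 on DSS in Flox. The GR iKO arrays gave −5.45, −5.32, −5.35 and −5.64 on water and −3.67, −3.89 and −4.37 on DSS. Neither genotype had overlapping groups, and the rise was 1.25 ± 0.23 in Flox mice (adjusted p = 0.000782) and 1.46 ± 0.23 in GR iKO (adjusted p = 0.000373). Under spike-in scaling Sfrp5 was called lower in Flox (−1.08, adjusted p = 0.0278). Sfrp2 changed by −0.03 ± 0.45 in Flox mice (adjusted p = 0.966) and −0.94 ± 0.45 in GR iKO (adjusted p = 0.108).

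Dkk2, which binds the Wnt co-receptor Lrp6, had the largest change of all members in Flox. It stood at −3.21, −3.75, −3.00 and −3.43 on water and at 0.89, 1.25 and 0.00 on DSS, a rise of 4.06 ± 0.30 on the log2 scale or 16.7-fold (adjusted p = 1.34e-06). GR iKO arrays gave −2.43, −2.98, −3.09 and −3.26 on water and −0.85, −0.21 and −0.42 on DSS, a rise of 2.45 ± 0.30 or 5.46-fold (adjusted p = 5.84e-05). No DSS array came near a water array in either genotype. Within slides the Flox difference ran from 3.44 to 5 and the GR iKO difference from 1.58 to 2.88. Dkk3, a divergent family member, lay at −0.15, −0.19, 0.06 and −0.10 on water and 1.28, 1.38 and 0.43 on DSS in Flox. Its GR iKO levels were −0.31, 0.02, −0.16 and −0.48 on water and 1.06, 1.60 and 0.37 on DSS. It was higher on every DSS array, by 1.12 ± 0.28 in Flox mice (adjusted p = 0.0047) and 1.24 ± 0.28 in GR iKO (adjusted p = 0.00315). Under spike-in scaling Dkk3 was called lower in Flox (−1.2, adjusted p = 0.0198) and was not called in GR iKO (0.32, adjusted p = 0.562).

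Dkk4, itself a target of β-catenin in some tissues, was above background on 4 arrays only. Its Flox values were −5.40, −7.56, −7.76 and −6.11 on water and −3.50, −7.83 and −6.55 on DSS. Its GR iKO values were −5.16, −6.36, −8.18 and −4.40 on water and −7.69, −7.48 and −7.80 on DSS. Replicate 1 of Flox on DSS stood far above the other DSS arrays of both genotypes, and neither DSS change passed the test (adjusted p = 0.563 in Flox and 0.218 in GR iKO).

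**Figure D3:**
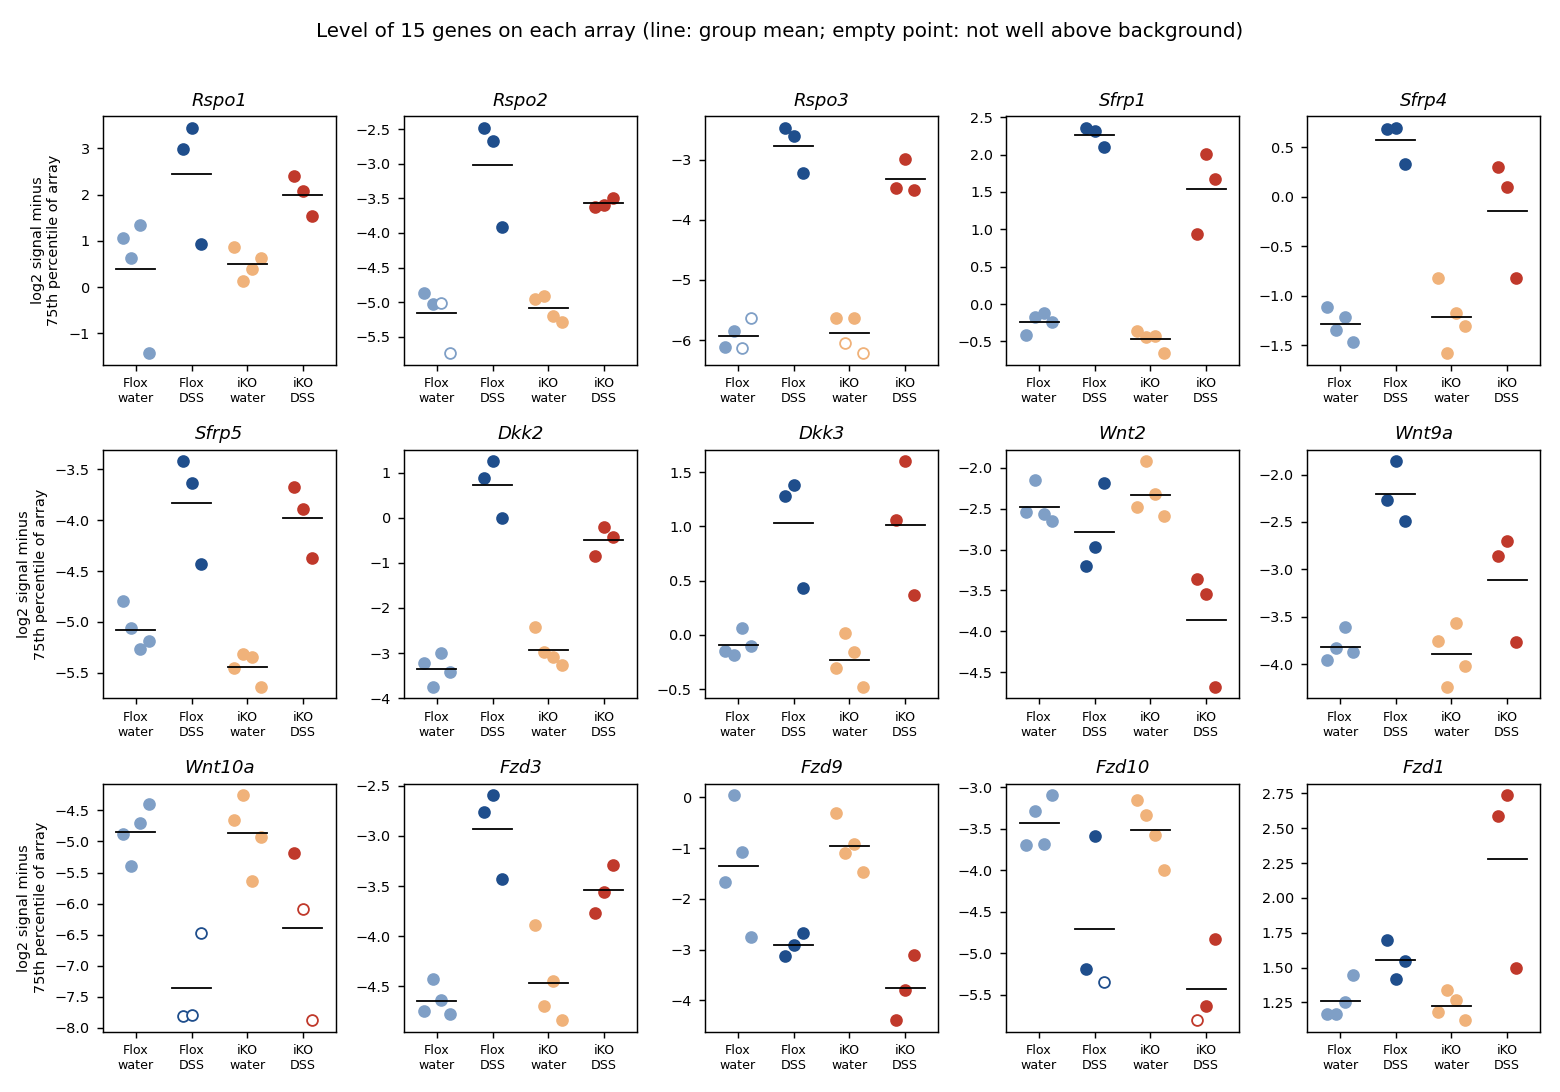
Each panel gives the level of 1 gene on every array as log2 signal minus the 75th percentile of the array, with a line at the group mean and empty points for arrays not well above background, and axes differ between panels. The DSS points of Rspo3, Sfrp1 and Dkk2 lie clear of the water points in both genotypes. Wnt10a has only empty points on Flox DSS and 1 filled point on GR iKO DSS, and Fzd1 is high on 2 of the 3 GR iKO DSS arrays.

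Among the 13 tested Wnt ligands, 3 passed the test in Flox and 6 in GR iKO, in both directions. Wnt9a rose in both genotypes, but lay below 0 in both under spike-in scaling. Its Flox values were −3.96, −3.83, −3.61 and −3.87 on water and −2.27, −1.86 and −2.49 on DSS, and its GR iKO values were −3.76, −4.24, −3.57 and −4.02 on water and −2.86, −2.70 and −3.77 on DSS. The Flox groups were apart and the GR iKO groups overlapped through replicate 4 on DSS. The rise was 1.61 ± 0.25 in Flox mice (adjusted p = 0.000225) and 0.79 ± 0.25 in GR iKO (adjusted p = 0.0229). The GR iKO call was lost or reversed in 9 of 25 alternatives. It was lost without GR iKO DSS replicate 1 or 3, or without GR iKO water replicate 2 or 4 (adjusted p of 0.0531 to 0.0994). Quantile normalization (adjusted p = 0.0625) and array quality weights (0.44, adjusted p = 0.256) ended it too. Wnt11, a ligand known mostly for β-catenin-independent signals, rose by 0.63 ± 0.19 in Flox mice (adjusted p = 0.0157) and 0.68 ± 0.19 in GR iKO (adjusted p = 0.0135). Its Flox call was lost without Flox DSS replicate 1 (adjusted p = 0.0507) or replicate 4 (adjusted p = 0.0731). Under spike-in scaling Wnt11 was called lower in Flox (−1.69, adjusted p = 8.98e-05) and was not called in GR iKO (−0.25, adjusted p = 0.535).

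Wnt10a, a ligand of the β-catenin branch, fell from a dim but detected level to background in Flox. The Flox arrays gave −4.88, −5.40, −4.71 and −4.40 on water, all above background, and −7.81, −7.79 and −6.48 on DSS, none above background. The fitted Flox change was −2.51 ± 0.56 (adjusted p = 0.00251), which rests on DSS signals not above background. The water mean was 1.46-fold above a floor. That floor was the mean, over the 3 DSS arrays, of the lowest signal of any probe counted as above background. It is not a limit for this probe. GR iKO arrays gave −4.66, −4.25, −5.64 and −4.93 on water and −5.19, −6.09 and −7.88 on DSS, of which 1 DSS array was above background. That change was −1.52 ± 0.56 (adjusted p = 0.0436), and the call was lost in 15 of 25 alternatives, including without GR iKO DSS replicate 4 (−0.77). With normexp background correction the Flox change of Wnt10a was 0.23 (adjusted p = 0.347).

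Wnt2 and Wnt2b, related ligands of mesenchymal cells, passed the test in GR iKO only. Wnt2 stood at −2.48, −1.92, −2.32 and −2.59 on water and −3.36, −3.54 and −4.68 on DSS in GR iKO. Its Flox values were −2.54, −2.15, −2.56 and −2.65 on water and −3.20, −2.97 and −2.18 on DSS. It fell by 1.53 in GR iKO, where the groups did not overlap (SE 0.32, adjusted p = 0.00209), and its change of −0.31 ± 0.32 in Flox did not pass (adjusted p = 0.438). Wnt2b stood at −5.52, −4.88, −4.74 and −5.01 on water and −6.29, −7.12 and −7.77 on DSS in GR iKO, with no DSS array above background. Its Flox values were −5.85, −5.24, −5.09 and −4.38 on water and −7.32, −5.82 and −4.37 on DSS. The fitted GR iKO change of Wnt2b was −2.03 ± 0.58 (adjusted p = 0.0131, and 0.059 without GR iKO DSS replicate 4), and rests on DSS signals not above background. Its water mean was 1.77-fold above the floor of the DSS arrays. With normexp background correction the GR iKO change was 0.02 (adjusted p = 0.954). The Flox change of −0.69 ± 0.58 did not pass (adjusted p = 0.335). The interaction, which tests the DSS response in GR iKO against that in Flox, had an adjusted p of 0.171 for Wnt2 and 0.404 for Wnt2b.

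Wnt5a, the prototype ligand of β-catenin-independent signalling, was near background throughout. Flox arrays gave −6.00, −5.62, −6.89 and −7.02 on water and −4.93, −4.48 and −6.63 on DSS, with 2 arrays above background in each group. GR iKO arrays gave −6.04, −7.09, −7.41 and −6.67 on water, none above background, and −5.30, −5.28 and −5.56 on DSS, 2 of them above background. The fitted GR iKO change was 1.42 ± 0.5 (adjusted p = 0.0341), with no water array above background. The DSS mean, which includes an array not above background, was 1.39-fold above the floor of the water arrays. The call was lost in 11 of 25 alternatives. Among them were each GR iKO DSS array left out (adjusted p of 0.0586 to 0.0817) and 3 of the GR iKO water arrays left out in turn. The Flox change did not pass the test (adjusted p = 0.0974). Wnt1, Wnt4, Wnt5b, Wnt6, Wnt7b, Wnt8b and Wnt9b passed in neither genotype. Wnt9b stood at −4.44, −5.66, −6.92 and −7.52 on water and −5.67, −5.95 and −7.07 on DSS in Flox. GR iKO mice had −6.52, −7.10, −6.21 and −7.10 on water and −6.18, −5.31 and −6.24 on DSS, and it was above background on 3 arrays in all.

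Among the receptors, Fzd9 and Fzd10 fell in both genotypes, and Fzd3 rose in both but lay at −0.6 in Flox under spike-in scaling. Fzd9 stood at −1.66, 0.05, −1.07 and −2.75 on water and −3.13, −2.92 and −2.68 on DSS in Flox. GR iKO mice had −0.31, −1.09, −0.92 and −1.48 on water and −4.40, −3.79 and −3.11 on DSS. Flox water arrays spread widely, and replicate 4 overlapped the DSS arrays, whereas the GR iKO groups were apart. The fall was −1.55 ± 0.53 in Flox mice (adjusted p = 0.0262) and −2.82 ± 0.53 in GR iKO (adjusted p = 0.00109). In Flox the difference within slide 4 was 0.07, against −1.47 and −2.97 within slides 1 and 2. The Flox call was lost without Flox DSS replicate 1 or 2 or Flox water replicate 2 or 3 (adjusted p of 0.0595 to 0.0798). It was lost in 7 of 25 alternatives, among them arrays weighted by treatment (adjusted p = 0.112). Fzd10 went from −3.69, −3.28, −3.68 and −3.09 on water to −5.19, −3.59 and −5.35 on DSS in Flox. GR iKO levels went from −3.15, −3.33, −3.58 and −3.99 to −5.81, −5.64 and −4.83. Replicate 2 of Flox on DSS stayed at the water level, and the GR iKO groups did not overlap. The fall was −1.27 ± 0.39 in Flox mice (adjusted p = 0.016) and −1.92 ± 0.39 in GR iKO (adjusted p = 0.00189), and a dimmer Fzd10 probe gave −0.83 and −0.84 without passing the test (adjusted p = 0.0888 and 0.0983). The Flox call of Fzd10 was lost without Flox DSS replicate 1 (adjusted p = 0.0761) or replicate 4 (adjusted p = 0.0735), and with normexp background correction its Flox change was 0 (adjusted p = 0.982).

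Fzd3, a receptor used in planar polarity and axon guidance, stood at −4.75, −4.43, −4.64 and −4.78 on water and −2.76, −2.59 and −3.43 on DSS in Flox. GR iKO arrays gave −3.89, −4.70, −4.45 and −4.84 on water and −3.77, −3.56 and −3.29 on DSS. The groups did not overlap, and the rise was 1.72 ± 0.24 in Flox mice (adjusted p = 0.000104) and 0.93 ± 0.24 in GR iKO (adjusted p = 0.008). Another Fzd3 probe rose by 2.20 and 1.33. Fzd1, a receptor for β-catenin-activating Wnts, was at 1.17, 1.17, 1.25 and 1.45 on water and 1.70, 1.42 and 1.55 on DSS in Flox. GR iKO arrays read 1.18, 1.34, 1.27 and 1.12 on water and 2.59, 2.74 and 1.5 on DSS, and replicate 4 was close to the water arrays. It rose by 1.05 ± 0.24 in GR iKO (adjusted p = 0.00337, and 0.12 with adjusted p = 0.811 under spike-in scaling), its Flox change of 0.29 ± 0.24 did not pass (adjusted p = 0.315), and the interaction had an adjusted p of 0.24.

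Smaller changes were seen in other receptors. Fzd2 and Fzd4 rose in Flox, by 0.83 ± 0.22 (adjusted p = 0.00702) and 0.92 ± 0.29 (adjusted p = 0.0197), and their GR iKO changes of 0.03 and 0.48 did not pass. Under spike-in scaling both were called lower in Flox, Fzd2 at −1.49 (adjusted p = 0.0037) and Fzd4 at −1.4 (adjusted p = 0.00348). A less bright Fzd2 probe gave 0.29 in Flox without passing (adjusted p = 0.333). The Flox call of Fzd4 was lost without Flox DSS replicate 2 or 4 or Flox water replicate 2, with adjusted p of 0.0526 to 0.0741. Fzd6, which antagonises β-catenin signals in some settings, fell by 0.47 in Flox mice (adjusted p = 0.0312) and by 0.59 in GR iKO (adjusted p = 0.012). The Flox call of Fzd6 was lost without Flox DSS replicate 1 or Flox water replicate 1, 3 or 4 (adjusted p of 0.0597 to 0.144) and with slide as a block (adjusted p = 0.0691), and the GR iKO call without GR iKO DSS replicate 4 (adjusted p = 0.0546). Fzd5, Fzd7 and Fzd8 passed in neither genotype. The brighter Fzd5 probe gave 0.83 in Flox and a dimmer Fzd5 probe gave −0.35, so probes of this receptor disagreed in sign.

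Between genotypes on water, no member was called. None of the 33 passed the test in the 8 water arrays (limma), where 3 of all 29523 tested probes, 0.0102%, were called. At an unadjusted p under 0.05, 2 members differed, against 3.04% of all probes: Sfrp5 at −0.37 ± 0.12 and Sfrp1 at −0.24 ± 0.10 (GR iKO minus Flox, adjusted p = 1 for both). Sfrp5 was lower in GR iKO on all 4 slides, by −0.18 to −0.56, and it was the only member whose genotype groups did not overlap on water, where 2.26% of all probes did not. The estimate was below 0 for 20 of 33 members, against 51.8% of all probes. The 3 largest differences on water were those of Dkk4 (0.68 ± 0.87), Wnt9b (−0.60 ± 0.62) and Wnt5a (−0.42 ± 0.39), 3 genes near background. Standard errors of the 33 differences ran from 0.09 to 0.87, so small differences in the dim genes were not detectable with these arrays.

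On DSS, most members had lower estimates in GR iKO than in Flox, and none passed the test. In the fit of the 6 DSS arrays, 0 of 33 members and 0 of all 29523 probes, 0%, were called, and 4 members against 16.2% of all probes had an unadjusted p under 0.05 (limma): Dkk2 at −1.20 ± 0.36, Wnt2 at −1.08 ± 0.44, Wnt9a at −0.90 ± 0.34 and Fzd9 at −0.86 ± 0.35. The adjusted p was 0.231 for Dkk2 and 0.278 to 0.300 for the other three. The estimate was below 0 for 29 of 33 members, where 47.6% of all probes were below 0, and the median was −0.55 against 0.03 over all probes. Under spike-in scaling, which moved the median probe to 1.24, 2 members and 2.43% of all probes were below 0, and the difference of Dkk2 was 0.01. The 3 largest differences were those of Dkk4 (−1.70 ± 1.03), Wnt2b (−1.23 ± 0.77) and Dkk2.

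The genotype groups on DSS did not overlap for Dkk2, Sfrp1, Sfrp4, Wnt2 and Wnt9a, 5 members all lower in GR iKO, where 22.8% of all probes did not overlap and 11.6% did so with GR iKO lower. Within slides 1 and 4, the slides that held a DSS array of each genotype, 22 and 23 members were below 0, against 49.4% and 50.5% of all probes. On both slides 14 members were below 0 and 2 above, against 27.7% and 27.9% of all probes. Dkk2 differed by −1.10 and −0.42 within these slides, Sfrp1 by −0.35 and −0.43, and Wnt2 by −0.34 and −2.50. With slide as a block, 25 members were below 0 and the median was −0.32, against 48.8% and 0.01 for all probes. When the spread was shared over all 14 arrays, Dkk2 (adjusted p = 0.0301), Sfrp1 (adjusted p = 0.0484) and Wnt9a (adjusted p = 0.0461) were called lower in GR iKO, where 13.2% of all probes were called, a fit in which the less variable water arrays enter the spread. Smooth muscle markers had a median difference of −1.34 between genotypes on DSS, enteric glia and neuron markers −0.91, fibroblast markers −0.29 and adipocyte markers −2.64, while colonic epithelial markers had 0.57 and neutrophil markers 1.53, with none of these genes called. Under spike-in scaling these medians were −0.13, 0.3, 0.93, −1.43, 1.78 and 2.75, in the same order, with the median probe at 1.24. In that fit 6 of 11 epithelial and 5 of 5 neutrophil markers were called higher in GR iKO, where 16% of all probes were. Of the 4 adipocyte markers 2 were called lower, where 0.213% of all probes were. The part of these cell types in the lower estimates was not tested.

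**Figure D4:**
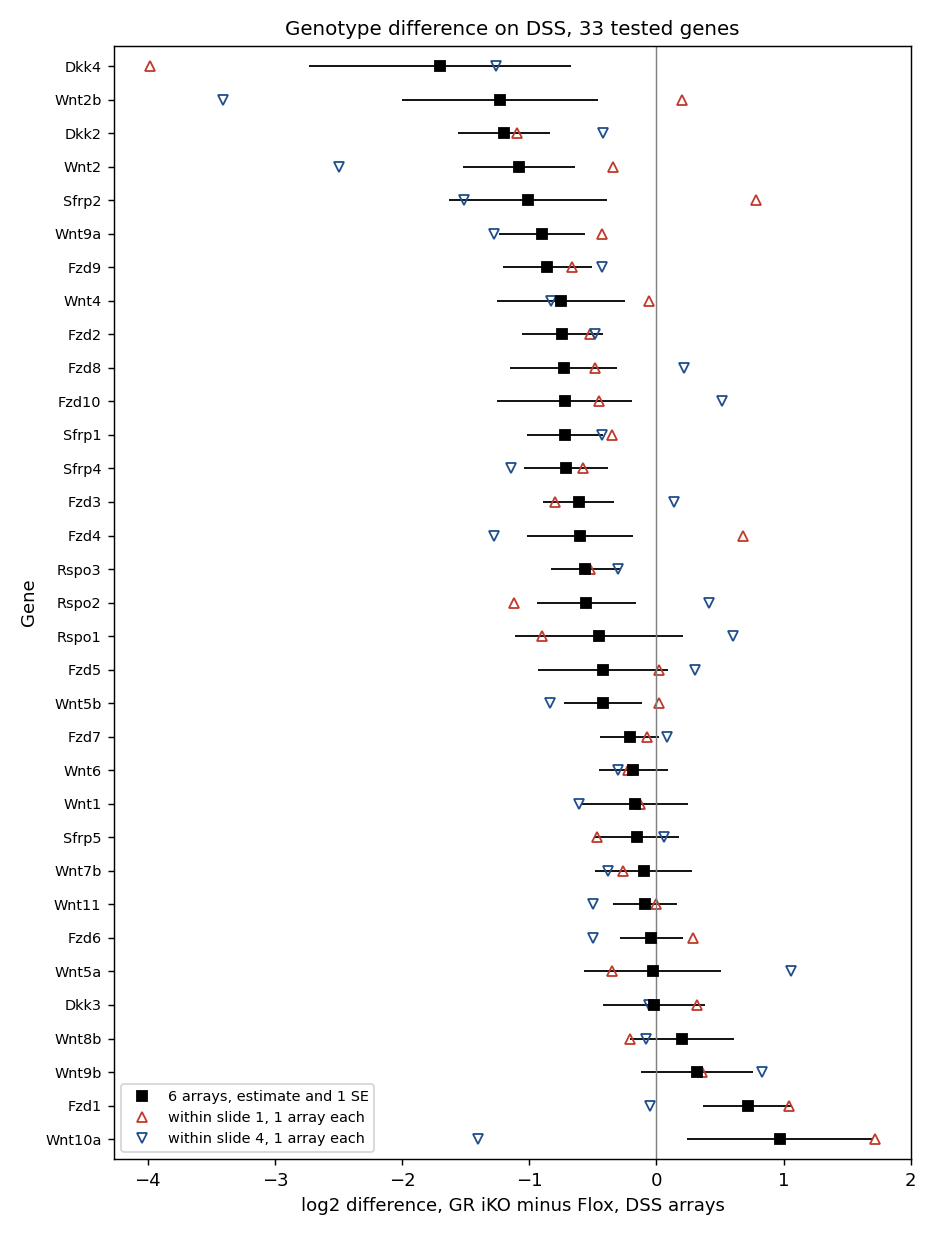
Squares give the log2 difference of GR iKO minus Flox on DSS for the 33 tested genes, with bars of 1 SE, and triangles give the difference between single arrays within slide 1 and within slide 4. Squares lie left of 0 for 29 of 33 genes, but for 2 of 33 under spike-in scaling, where 2.43% of all probes were below 0. The triangles of Wnt2b, Sfrp2, Fzd4 and Wnt10a fall on opposite sides of 0.

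The interaction tested whether the DSS response differed between genotypes. No member passed (limma), where 0.112% of all probes were called, and 7 members against 19.2% of all probes had an unadjusted p under 0.05. The estimate was below 0 for 24 of 33 members, against 47.5% of all probes, but for 2 of 33 under spike-in scaling, where 1.87% of all probes were below 0. The lowest adjusted p belonged to Dkk2, whose response was smaller in GR iKO by 1.61 on the log2 scale (difference −1.61 ± 0.42, adjusted p = 0.0868). Dkk2 passed without Flox DSS replicate 4 (adjusted p = 0.0178), without GR iKO DSS replicate 3 (adjusted p = 0.0443) and with array quality weights (adjusted p = 0.0278). Without Flox DSS replicate 4, Fzd2 (−1.09) and Rspo2 (−1.07) passed as well, without GR iKO DSS replicate 3 so did Sfrp2 (−1.59), and without GR iKO DSS replicate 4 only Fzd1 passed, at 1.14 (adjusted p = 0.0288). Of all probes, 7.52%, 6.97% and 1.1% were called in these fits, in that order, and 10% with array quality weights. Under spike-in scaling 7 members passed, all with a higher estimate in GR iKO, where 63.1% of all probes were called. Flox DSS replicate 4, the array with the lowest signal, was the lowest of the 3 Flox DSS arrays for 11 of the 13 members called higher in Flox. The share of all probes lowest on that array was not computed, so the count says nothing particular about these members.

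Other genes of the pathway were taken from lists that hold no member. Of 79 listed genes 72 were tested. DSS raised 25 and lowered 16 in Flox and raised 22 and lowered 13 in GR iKO. Of all tested probes, 24.4% were called higher and 28.2% lower in Flox, and 22% and 22.5% in GR iKO. Under spike-in scaling the split of the listed genes became 1 and 66 in Flox and 2 and 33 in GR iKO. There 1.08% and 88.1% of all probes were called higher and lower in Flox, and 3.93% and 51.7% in GR iKO. Among 15 tested Wnt targets and feedback inhibitors, 1 was higher and 8 were lower in Flox, with a median of −0.77, and 2 were higher and 7 lower in GR iKO, with a median of −0.8. Under spike-in scaling the counts for this list were 0 higher and 14 lower in Flox and 0 higher and 12 lower in GR iKO. Those lower counts stand beside the 88.1% and 51.7% of all probes called lower. Lgr5, the R-spondin receptor of crypt stem cells, fell by 3.64 in Flox (SE 0.58, adjusted p = 0.000242) and by 4.05 in GR iKO (SE 0.58, adjusted p = 0.00017) on the log2 scale. Axin2, a feedback inhibitor used as a readout of β-catenin activity, fell by 2.23 (SE 0.17, adjusted p = 1.46e-06) and 2.07 (SE 0.17, adjusted p = 4.03e-06). Ascl2, a transcription factor of crypt stem cells, fell by 2.16 and 2.03, Rnf43, the ligase that removes Frizzled receptors, by 2.03 and 1.22, and Slc12a2, a chloride cotransporter of crypt cells, by 1.63 and 1.56. Nkd1, an inhibitor that binds Dishevelled, rose by 2.26 and 1.27, but stood at −0.06 and 0.35 without a call under spike-in scaling.

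**Figure D5:**
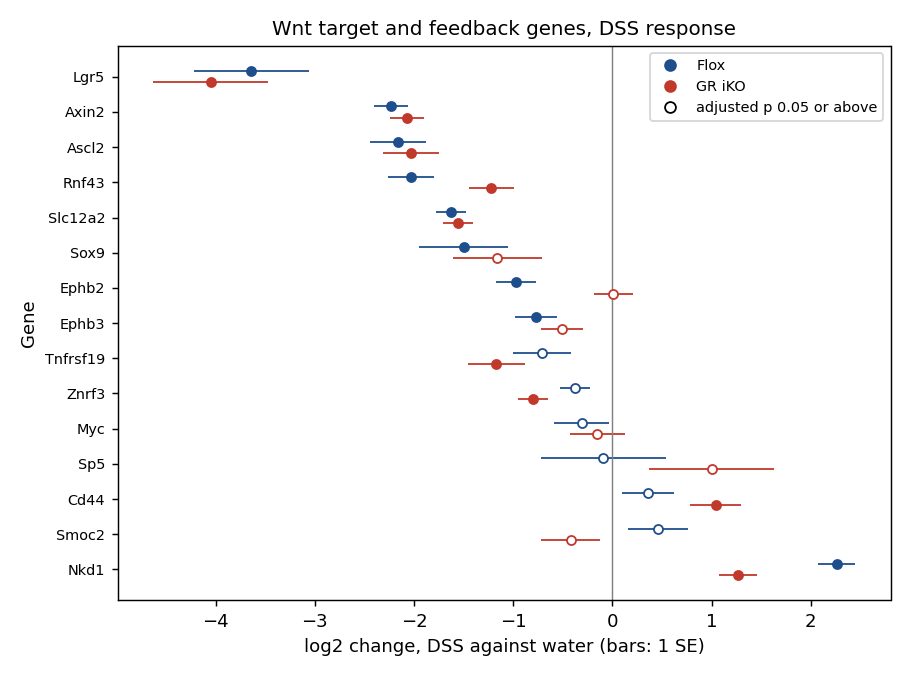
Points give the log2 change on DSS against water of 15 Wnt target and feedback genes, blue for Flox and red for GR iKO, with bars of 1 SE and filled points for an adjusted p under 0.05. Lgr5, Axin2 and Ascl2 lie at −2.03 or below in both genotypes, and Nkd1 lies to the right of 0 except under spike-in scaling in Flox.

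Secreted regulators outside the member families gave 4 higher and 2 lower of 12 tested in Flox, and 5 higher and 2 lower in GR iKO. The shares of all probes given for the 72 genes apply to the counts here as well. Sostdc1, a secreted antagonist of Wnt and BMP signals, rose by 3.58 (SE 0.31, adjusted p = 3.33e-06) and 3.17 (SE 0.31, adjusted p = 1.25e-05), Igfbp4 by 2.48 and 2.32, and Frzb, a further Frizzled-related decoy, by 2.26 and 1.39, of which Frzb was at −0.06 in Flox under spike-in scaling. Co-receptors and surface regulators gave 5 higher and 1 lower of 10 in Flox and 5 higher and 0 lower in GR iKO, with Gpc3, a glypican that binds Wnts, at 2.28 and 1.08. Intracellular genes gave 15 higher and 5 lower of 35 in Flox and 10 higher and 4 lower in GR iKO. Prickle2, a planar polarity protein, rose by 1.95 and 1.31, and Tcf7l1, a TCF factor that mostly represses, fell by 1.65 and 1.45. Under spike-in scaling few of these rises held as calls. Secreted regulators then gave 1 higher and 9 lower of 12 in Flox, and 2 and 4 in GR iKO. Co-receptors and surface regulators gave 0 higher and 9 lower of 10 in Flox, and 0 and 1 in GR iKO. Intracellular genes gave 0 higher and 34 lower of 35 in Flox, and 0 and 16 in GR iKO. No gene of these 4 lists passed the test between genotypes on water, on DSS or in the interaction. Of all probes, 0.0102%, 0% and 0.112% were called there. The median genotype difference on DSS was −0.12 over the 72 genes and 0.07 over the 15 targets and feedback inhibitors, against 0.03 over all probes. Under spike-in scaling 10 of the 72 were called on DSS, all higher in GR iKO, where 16% of all probes were. The median was then 1.09, against 1.24 over all probes. In the interaction 40 of the 72 were called under that scaling, all higher, where 63.1% of all probes were.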

How the data were processed

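Whole-colon RNA of 14 mice was labelled with Cy3 and hybridised to Agilent whole-genome mouse arrays, 1 mouse per array. Per the file headers, the deposited intensity values are gProcessedSignal, which Agilent Feature Extraction had background-subtracted, and the authors also deposited a log2 table of processed values, used here only as an alternative, whose columns share their quartiles and whose normalization is not given in the sources used here. The submitters' processing notes name Agilent Feature Extraction and Partek 6.6. The intensity values were used as log2 minus the 75th percentile of each array. Probes well above background on at least 3 of 14 arrays were tested with limma 3.58.1 in R 4.3.3, with tables read by data.table (version 1.17.8), with Benjamini-Hochberg adjustment over all 29523 tested probes and calls at an adjusted p under 0.05. DSS comparisons and the interaction used all 14 arrays and 1 spread for water and DSS arrays. As DSS arrays varied more, that spread may be too small for these comparisons. With arrays weighted by treatment, 15 members were called in Flox and 16 in GR iKO, against 17 and 18. The shares of all probes were then 47.2% and 38.9%, against 52.6% and 44.5%. Genotype comparisons used the 8 water arrays or the 6 DSS arrays, because DSS arrays varied more. Array number limits the precision. The rule for members reads gene names only, but it, the gene lists and the tests were chosen with earlier results of these data known.

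Genes were named through each probe's accession and RefSeq. By rule, values per array are given for members called on DSS with an absolute log2 change of at least 1, and for the 3 largest differences between genotypes on water and on DSS, and at most 12 other pathway genes, called with such a change in both genotypes, are named. For genes not above background in a whole group, the bright group's mean was set against a floor. The floor was the dim group's mean, over arrays, of the lowest above-background signal among all probes. The gene's own signal was used where it was higher. An undetected probe can lie above such a floor, so the fold is not a strict bound. Alternatives were quantile, spike-in and normexp scaling (offset 50), the deposited table, no filter, slide or replicate as a block, weights, other arrays in the fit, averaged probes and each array left out. Normexp used median rather than mean spot signals, which were the ones in the files used here. The fit was tested on simulated data.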

Additional observations from a re-analysis of the deposited data

Results flagged for a closer look

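Fzd4 in GR iKO mice on water had a low array. Replicate 4 stood at −1.50 against −1.24 to −1.19 on the other 3 arrays, all well above background, and its gap was 0.839 of the range of the group, above the 95% critical value of Dixon for a group of 4. It was 1 of 66 groups of 4 arrays examined, and chance sets apart about 1 in 20. Fzd4 did not pass the test in GR iKO on DSS or between genotypes.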

How the results depend on the processing

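Of the 17 members called in Flox and 18 in GR iKO, 1 (Dkk2) and 6 (Dkk2, Fzd9, Fzd10, Rspo3, Sfrp1, Wnt2) kept their call under every alternative. Spike-in scaling reversed, in Flox, Dkk3 (−1.2), Fzd2 (−1.49), Fzd3 (−0.6), Fzd4 (−1.4), Rspo1 (−0.27), Rspo2 (−0.18), Sfrp4 (−0.47), Sfrp5 (−1.08), Wnt9a (−0.71) and Wnt11 (−1.69), in GR iKO Wnt9a (−0.13) and Wnt11 (−0.25), and between genotypes on DSS Dkk2 (0.01). Of these, Dkk3, Fzd2, Fzd4, Sfrp5 and Wnt11 were called lower in Flox, and the others were not called. Spike-in scaling shifts all probes of an array alike, and the median probe moved to −2.41 in Flox and −0.95 in GR iKO. Normexp reversed Wnt10a in Flox (0.23) and Wnt2b in GR iKO (0.02) and put Fzd10 in Flox at 0, and the cause was not tested. Calls between genotypes on DSS numbered 8 with array quality weights, all lower in GR iKO (15.1% of all probes called), 3 with all 14 arrays in the fit, all lower (13.2%), and 2 under spike-in scaling, both higher (16.2%), against 0. Interaction calls numbered 3 with array quality weights (10% of all probes), 7 under spike-in scaling (63.1%), and 0 to 3 with 1 array left out (3 without Flox DSS replicate 4, where 7.52% of all probes were called), against 0. With 1 array left out, Flox calls ranged from 12 to 19 and GR iKO calls from 14 to 19. Whether replicate numbers pair the samples could not be settled with so few arrays. Deviations of same-numbered arrays correlated at 0.132, 0.072, −0.08 and 0.31 on water and 0.179 and −0.034 on DSS. Those of differently numbered arrays ran from −0.281 to 0.251 on water and from −0.2 to 0.198 on DSS. With replicate number as a block, Fzd6 lost its Flox call (adjusted p = 0.0701), and 16 and 19 members were called in Flox and GR iKO and 0 between genotypes or in the interaction. Genes near background (Wnt2b, Wnt5a, Wnt8b, Wnt9b, Wnt10a and Dkk4) are limited by signal over background.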
